A study of Homo sapiens with 21 samples.

Results

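The SMAD transcription factors and the inhibitors that TGFβ signalling switches on against itself were followed in HMLE cells, an immortalized line of human mammary epithelial cells, through 20 days of TGFβ. The 10 genes were taken by symbol from the 23201 gene symbols of one RNA-seq table: SMAD2, SMAD3, SMAD4, SMAD6, SMAD7, SKI, SKIL, PMEPA1, SMURF1 and SMURF2. The question addressed was whether the induction of the inhibitors lasted to day 20. The study profiled the epithelial to mesenchymal transition (EMT) of these cells with 3 libraries of total RNA at each of 7 timepoints: untreated cells (d0) and cells treated with TGFβ for 1, 4, 7, 10, 15 and 20 days (d1 to d20). The dose of TGFβ was not given, all libraries came from the same line, and no untreated cells of the later days were among the libraries, so days of treatment and days in culture cannot be told apart.

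TGFβ binds a pair of receptor kinases, which phosphorylate the receptor-regulated SMADs, SMAD2 and SMAD3, and these enter the nucleus with the common partner SMAD4 to regulate genes. Several of the genes switched on in this way restrain the pathway: SMAD7 blocks the receptor, SMURF1 and SMURF2 are ubiquitin ligases that SMAD7 brings to it, SKI and SKIL (also called SnoN) are corepressors that silence SMAD complexes, and PMEPA1 is a membrane protein that keeps SMAD2 and SMAD3 from the receptor. In epithelial cells the same pathway halts proliferation and drives EMT.

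Promoter sequence was read for the members from the RefSeq windows of GRCh38.p14, 250 bases upstream of each annotated start, and 9 of the 10 genes had at least 1 such window (SKI had no entry). The windows were searched on both strands for CAGAC, a short SMAD-binding element (GTCTG on the other strand), and for GTCTAGAC, the palindromic SMAD element, which shares no full match with the first. CAGAC stood in 8 of the 19 windows of the members, or 42.1%, and in 38% of the 35116 windows of all genes. Shown here are the windows of the inhibitors with the largest induction, and that of SMAD6, the one member whose window held the palindrome. Capitals mark the motifs, and positions count back from the start site, with -1 as the base before it. SMAD7 has 3 annotated starts, and the windows of 2 of them hold CAGAC. The SMAD7 window shown belongs to its most upstream start (chr18:48950966-48951215, minus strand) and holds CAGAC at -217 and -128. That of SKIL (chr3:170357465-170357714, plus strand) holds the element on the other strand at -107. That of SMAD6 (chr15:66701986-66702235, plus strand) ends with GTCTAGAC at -12. PMEPA1 has 4 annotated starts, and the windows of 2 of them hold CAGAC, shown with flanks as 30 bases each (chr20:57710675-57710704 and chr20:57690740-57690769, minus strand).
SMAD7: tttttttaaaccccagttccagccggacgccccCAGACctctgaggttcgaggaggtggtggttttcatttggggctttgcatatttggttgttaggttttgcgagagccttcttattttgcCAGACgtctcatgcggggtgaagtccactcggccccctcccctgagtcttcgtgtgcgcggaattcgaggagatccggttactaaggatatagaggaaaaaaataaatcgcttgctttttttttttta
SKIL: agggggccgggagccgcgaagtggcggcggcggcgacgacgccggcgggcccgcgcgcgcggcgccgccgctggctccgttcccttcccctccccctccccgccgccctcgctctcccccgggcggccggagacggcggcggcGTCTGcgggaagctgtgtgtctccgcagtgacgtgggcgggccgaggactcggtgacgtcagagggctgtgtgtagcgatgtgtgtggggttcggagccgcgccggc
SMAD6: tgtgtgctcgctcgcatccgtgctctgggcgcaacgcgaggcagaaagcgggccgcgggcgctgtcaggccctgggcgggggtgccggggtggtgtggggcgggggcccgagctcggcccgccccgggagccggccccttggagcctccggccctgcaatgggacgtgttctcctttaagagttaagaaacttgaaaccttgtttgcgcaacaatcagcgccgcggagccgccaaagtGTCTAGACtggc
PMEPA1 first site: ccccttgggcagCAGACaatgggtgtggat
PMEPA1 second site: caggctccacccCAGACttccggcaggtgg
Of all windows, 8.84% held 2 or more CAGAC, as the SMAD7 window shown does, and 0.182% held GTCTAGAC. These matches describe letters in the windows and no binding was measured.

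The values are normalized read counts, the reads of a gene divided by one size factor of the library, and the libraries held between 18847917 and 22667754 reads assigned to genes. Libraries of a timepoint are called a, b and c. Pairs of libraries from one timepoint had a root mean square difference in log2 values between 0.214 and 0.243, except that d7 library c stood at 0.472 and 0.457 from its partners, and the d7 results that it moves most are given also without it or library by library. The 6 basal mammary epithelial markers, KRT5 and KRT14 among them, reached a mean of 10 in this line, with a sum between 232802 and 773094 per library. So did 5 of the 6 luminal markers, KRT8 and KRT18 among them, and the luminal list summed to between 11500 and 16822. None of the 3 adipocyte markers did, and their sum lay between 7.44 and 40.4, with the highest mean at d15. Of the 5 leukocyte markers, LYZ and CD14 reached a mean of 10, CD14 with at most 59 reads in a library. PTPRC and CD3E had at most 1 read in any library, and the summed leukocyte list lay between 16.6 and 71.2. Of the 5 endothelial markers, PECAM1, KDR and TEK reached a mean of 10, and CDH5 had at most 1 read. The summed endothelial list lay between 29.2 and 291, highest at d15 through KDR, and its part in the results was not tested. Changes were tested with limma on log2(value + 1) over the 13343 genes with a mean of at least 10, and a gene was called changed at a Benjamini-Hochberg adjusted p under 0.05. The libraries are of bulk RNA, so fewer cells that express a gene and less RNA per cell cannot be told apart.

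**Figure D1:**
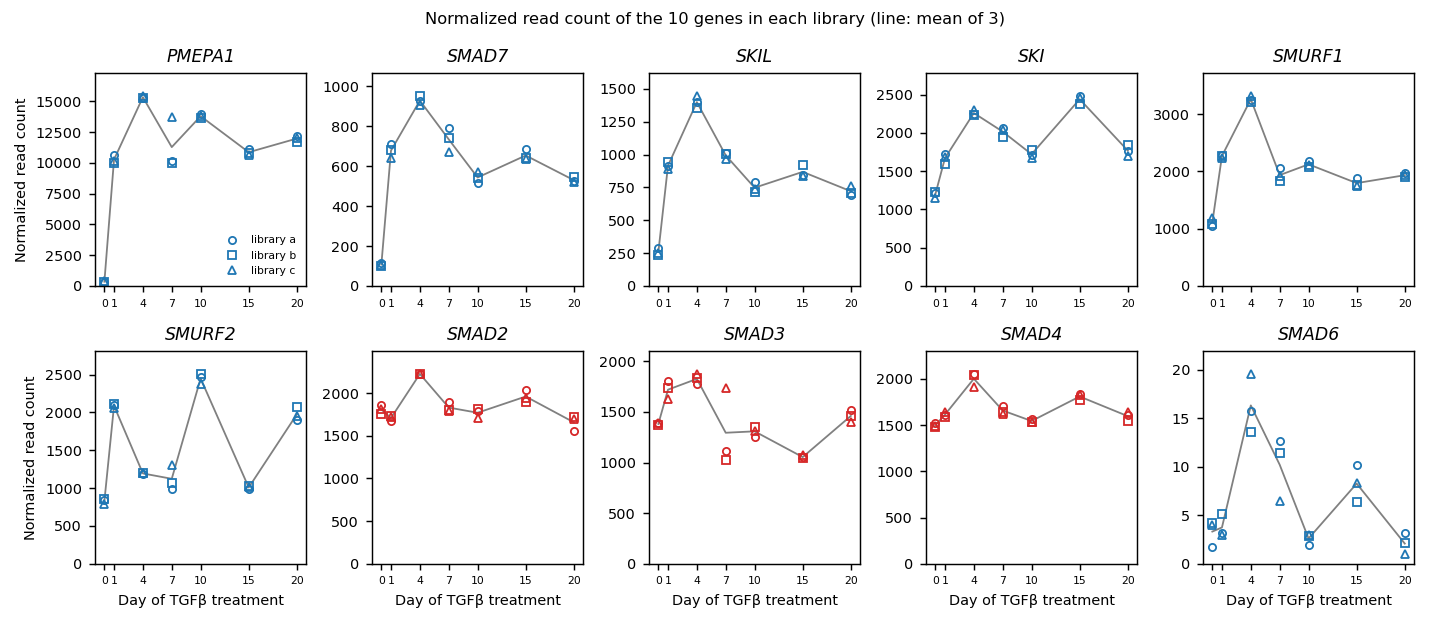
Normalized read count (y axis, from 0, own scale per gene) of the 10 genes against day of TGFβ treatment (x axis), with a point for each of the 3 libraries of a timepoint and a line through their means. The inhibitors in blue (PMEPA1, SMAD7, SKIL, SKI, SMURF1, SMURF2) stand above untreated cells in all 18 treated libraries, the receptor-regulated and common SMADs in red vary over a narrower range, and SMAD6, also in blue, stays below 20.

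PMEPA1 gave the largest change of the 10 genes. Its normalized read count was 340, 329 and 376 in the untreated libraries, and 10671, 10026 and 10123 after 1 day of TGFβ. It was 15317, 15279 and 15439 at d4, and 10132, 10018 and 13712 at d7. At d10 the values were 13949, 13650 and 13805, at d15 11103, 10847 and 10666, and at d20 12166, 11743 and 12042. No treated library came near an untreated one, and the lowest treated value, 10018 at d7, stood against a highest untreated value of 376. The mean rose 29.5-fold at d1, 44.1-fold at d4 and 34.4-fold at d20. On the log2 scale the change against untreated was 4.88 ± 0.076 (SE) at d1 and 5.10 ± 0.076 at d20 (limma, Benjamini-Hochberg adjusted p = 4.28e-22 and 1.11e-22). By this change PMEPA1 ranked 19 from the top of 13343 genes at d1 and 39 at d20. Among the treated days, d4 and d10 stood above d20 without overlap, whereas the libraries of d1, d15 and d7 overlapped their neighbours in the order of means. At d7, library c was 0.44 above the mean of the other d7 libraries on the log2 scale, and without it the change at d7 was 4.85 in place of 5.0.

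SMAD7, the inhibitory SMAD that blocks the receptor, was the second most induced. Its normalized read count was 117, 99.2 and 106 in untreated cells, and 712, 680 and 640 at d1. It was 927, 950 and 906 at d4, 791, 740 and 669 at d7, and 518, 542 and 569 at d10. It was 686, 639 and 634 at d15, and 525, 543 and 521 at d20. Every treated library lay above 517, more than the untreated cells reached in any library, and d4 stood apart from all other days as the highest. The log2 change against untreated was 2.65 ± 0.067 at d1 and rose to 3.1 at d4. On d7 and d10 it was 2.76 and 2.33, and on d15 and d20 it was 2.59 and 2.29 ± 0.067 (limma, adjusted p at d20 = 1.54e-17). The libraries of d20 and d10 overlapped at the low end of the treated days.

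SKIL, the corepressor that is degraded when TGFβ arrives and then re-made, had untreated values of 290, 237 and 248 and d1 values of 915, 944 and 888. It reached 1402, 1352 and 1446 at d4, with 1009, 1005 and 970 at d7 and 790, 714 and 740 at d10. It was 848, 918 and 841 at d15 and 696, 706 and 762 at d20. The order of the days was that of SMAD7, from untreated upward through d20, d10, d15, d1, d7 and d4, and the 3 libraries of d20 overlapped those of d10. The log2 change was 1.82 ± 0.063 at d1, 2.44 at d4 and 1.48 ± 0.063 at d20 (limma, adjusted p at d20 = 9.51e-15). SKI, its relative, began from more reads and changed less: 1219, 1222 and 1153 in untreated cells, 1727, 1600 and 1684 at d1, and 1763, 1841 and 1703 at d20. SKI was highest at d15, with 2482, 2381 and 2459, where it stood apart from d4 with 2243, 2235 and 2301. Its log2 change was largest at d15 (1.03) and d4 (0.92), followed by d7 (0.75), d20 (0.56), d10 (0.52) and d1 (0.48), each with an SE of 0.041 (limma, largest adjusted p over the 6 days = 1.66e-09). Of the days, SKI was at least 2-fold above untreated only at d15.

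The 2 ubiquitin ligases rose on every treated day but followed different courses. SMURF1 was 1049, 1086 and 1187 in untreated cells, 2291, 2277 and 2240 at d1, and 3250, 3213 and 3316 at d4. On d7 it was 2058, 1832 and 1915, followed by 2182, 2081 and 2107 on d10, then 1879, 1755 and 1753 on d15 and 1972, 1895 and 1935 on d20. The peak at d4 stood apart from all other days, and d15, the lowest treated day, still lay above every untreated library. SMURF2 was 837, 862 and 792 in untreated cells, 2097, 2107 and 2063 at d1, and 1183, 1204 and 1197 at d4. On d7 it was 989, 1071 and 1311, followed by 2464, 2510 and 2372 on d10, then 991, 1026 and 1010 on d15 and 1895, 2075 and 1956 on d20. The d1, d10 and d20 libraries of SMURF2 did not overlap those of d4, d7 and d15, the former at 1895 or more and the latter at 1311 or less.

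The swings of SMURF2 between successive days were larger than the spread between libraries. SMURF2 fell by 0.81 on the log2 scale from d1 to d4, rose by 1.13 from d7 to d10, fell by 1.28 from d10 to d15 and rose by 0.97 from d15 to d20, each with an SE of 0.066 (limma, largest adjusted p of the 4 = 1.73e-09). From d4 to d7 its change was -0.10 (limma, adjusted p = 0.224). Without d7 library c, that change was -0.21 and passed the threshold (limma, adjusted p = 8.29e-05). SMURF1 rose by 0.52 from d1 to d4, when SMURF2 fell. The log2 ratio of SMURF2 to SMURF1, averaged over 3 libraries, was -0.41 in untreated cells. It stood at -0.12, 0.21 and 0.03 on d1, d10 and d20, and at -1.45, -0.79 and -0.83 on d4, d7 and d15. The 3 libraries of d7 were spread, at -1.06, -0.77 and -0.55, with library c the highest. Its SD over libraries ran from 0.0076 at d1 to 0.26 at d7. A list of 12 cell-cycle genes had a mean log2(value + 1) of 12.28 in untreated cells, of 12.07, 12.21 and 12.25 on d1, d10 and d20, and of 11.50, 11.75 and 10.47 on d4, d7 and d15, with 11.59, 11.64 and 12.02 in the libraries of d7. Among the treated days those were the days of lower SMURF2, but in untreated cells SMURF2 was at its lowest while the cell-cycle mean was at its highest. The part of proliferation in the SMURF2 result was not tested.

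**Figure D2:**
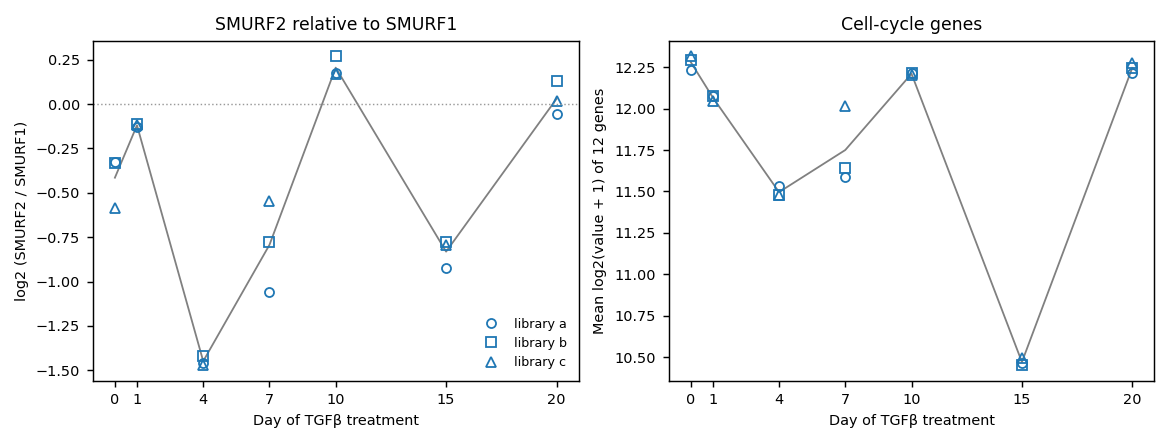
Left, log2 ratio of SMURF2 to SMURF1 (y axis) and right, mean log2(value + 1) of 12 cell-cycle genes (y axis, not from 0), each against day of TGFβ treatment (x axis), with 3 libraries as points and their mean as a line. Both are low at d4, d7 and d15 and higher at d1, d10 and d20, while untreated cells are high for the cell-cycle genes (12.28) and lie between for the ratio (-0.41).

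Set beside the inhibitors, the SMADs that carry the signal changed little. SMAD2 was 1862, 1750 and 1813 in untreated cells, 1670, 1734 and 1721 at d1, 2225, 2223 and 2225 at d4, and 1552, 1723 and 1699 at d20. Its highest mean, at d4, was 1.34 times its lowest, at d20, and in the order of means each pair of neighbours up to d15 overlapped, with d4 apart. SMAD2 rose by 0.30 ± 0.042 on the log2 scale at d4 and by 0.12 at d15 (limma, adjusted p = 1.95e-06 and 0.0172), and it fell by 0.13 at d20 (limma, adjusted p = 0.0135). At d1, d7 and d10 its change was -0.08, 0.02 and -0.03 and did not pass the threshold (limma, adjusted p = 0.104, 0.724 and 0.534). The d20 call was lost without d0 library a or without d20 library a (log2 changes of -0.10 and -0.08; limma, adjusted p = 0.0654 and 0.116). The d15 call was lost without d0 library b or d15 library a (log2 changes of 0.09 and 0.09; limma, adjusted p = 0.0827 and 0.0944). With every library set to the same total, the SMAD2 change was -0.17 at d7 and -0.04 at d15 (limma, adjusted p = 0.000845 and 0.349). The median change of all genes was then -0.19 and -0.14. Under that scaling the falls of SMAD2 at d1 and d10 passed the threshold. Under quantile normalization the falls at d1 and d10 passed it too, and the d15 call was lost (limma, adjusted p = 0.104).

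SMAD3, the DNA-binding receptor-regulated SMAD, was higher at d1 and d4 and lower at d15. It was 1387, 1372 and 1387 in untreated cells, 1801, 1734 and 1625 at d1, and 1773, 1831 and 1876 at d4. It was 1113, 1030 and 1740 at d7, and 1256, 1355 and 1315 at d10. On d15 it was 1051, 1041 and 1071, and on d20 1521, 1458 and 1403. The d1 and d4 libraries overlapped each other and lay above every untreated one, and the d15 libraries lay below every untreated one. SMAD3 rose by 0.31 ± 0.112 at d1 and 0.40 at d4 and fell by 0.39 at d15 (limma, adjusted p = 0.0199, 0.003 and 0.00346). At d20 the change was 0.08, with a 95% interval from -0.15 to 0.31 (limma, adjusted p = 0.554). When only d0 and d1 were fitted, the d1 rise was called with the same change of 0.31. Without d1 library a, the d1 change was 0.28 and missed the threshold (limma, adjusted p = 0.0697). With every library set to the same total, the d1 and d4 changes were 0.12 and 0.21 and missed it too (limma, adjusted p = 0.358 and 0.112), as did the d1 change of 0.22 under quantile normalization (limma, adjusted p = 0.0932). At d7, library c lay 0.70 above the mean of the other d7 libraries on the log2 scale. With it the d7 change was -0.13 (limma, adjusted p = 0.298), and without it SMAD3 fell by 0.37 at d7 (limma, adjusted p = 4.91e-09). Under the same total, SMAD3 was called lower at d7 and d10, at -0.33 and -0.31 (limma, adjusted p = 0.0156 and 0.0217). The median change of all genes was then -0.19 and -0.20. In the main run the d10 change was -0.08 (limma, adjusted p = 0.544).

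SMAD4, the common partner, was 1527, 1481 and 1488 in untreated cells, 1610, 1592 and 1640 at d1, 2055, 2041 and 1911 at d4, and 1611, 1544 and 1637 at d20. All 18 treated libraries lay above the 3 untreated ones, but the highest mean was only 1.34 times the lowest. SMAD4 rose by 0.42 ± 0.037 at d4, 0.15 at d7 and 0.27 at d15, with smaller changes of 0.11 at d1 and 0.09 at d20 (limma, adjusted p at d1 and d20 = 0.0163 and 0.0348). At d10 its change was 0.04 (limma, adjusted p = 0.298). The d20 call was lost without d0 library b or c or without d20 library a or c, and the d1 call without d0 library b or d1 library c, with adjusted p of limma between 0.0533 and 0.131. The d20 call was also lost by edgeR and DESeq2 (adjusted p = 0.108 and 0.0742), and under quantile normalization the d1 change was 0.0052 (limma, adjusted p = 0.916). The direction of SMAD4 depended on the scaling: with every library set to the same total, its changes at d1, d7, d10 and d20 turned negative, and under quantile normalization those at d10 and d20 did. That scaling moved the median of all genes against untreated by -0.14 to -0.20, and relative to that median SMAD4 was higher by 0.10 at d1 and 0.09 at d20.

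SMAD6, the inhibitory SMAD that acts mainly in the BMP branch of the family, was close to the floor of 3 reads and did not reach the mean value for testing. Summed over 3 libraries it had 11 reads in untreated cells and 11 at d1. The sums at d4, d7 and d15 were 49, 30 and 25, and those at d10 and d20 were 8 and 6. The normalized counts at d4 were 15.8, 13.6 and 19.6 and those in untreated cells 1.78, 4.24 and 3.96, so these groups did not overlap. The ratio to untreated was 4.92 at d4 with a 95% interval of 2.52 to 10.5, 3.03 at d7 (1.48 to 6.70) and 2.47 at d15 (1.17 to 5.56), from exact intervals that cover counting error only. At d20 the ratio was 0.62, with an interval from 0.19 to 1.83. In a limma fit without the filter on low values, the adjusted p was 3.69e-05 at d4, 0.00227 at d7 and 0.00828 at d15, and 0.784, 0.666 and 0.273 at d1, d10 and d20.

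**Figure D3:**
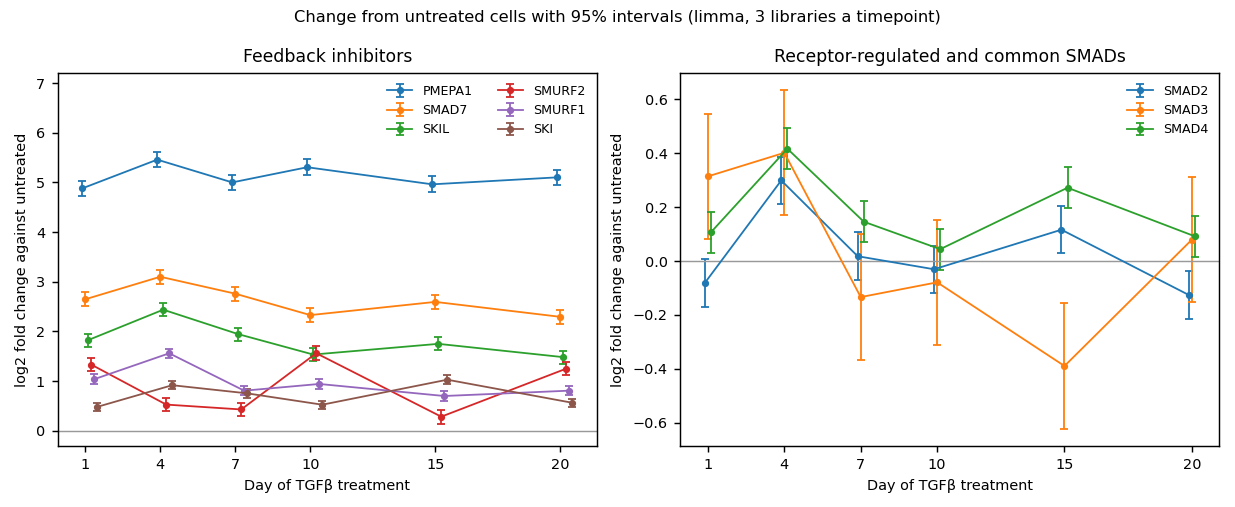
Log2 fold change against untreated cells (y axis) by day of TGFβ treatment (x axis), with 95% intervals from limma, for 6 inhibitors on the left and 3 SMADs on the right, drawn on different y scales. The intervals of the inhibitors stay above 0 on all 6 days, from PMEPA1 near 5 to SMURF2 at d15 (0.28), while those of SMAD2 and SMAD3 cross 0 on several days.

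Across the 9 members tested, 8 were called changed at d1, where 59.8% of all genes tested were called, so most genes moved and a call alone says little about the members. At d20 the members called were 8 of 9, against 62.7% of all genes, and at d4 they were 9 of 9, against 72.2%. On d7 the count was 7 of 9 (67.2% of all genes), on d10 6 of 9 (67.8%) and on d15 9 of 9 (76.5%). With d7 library c left out, 8 of 9 were called at d7. With a minimum change of 2-fold, 5 of 9 members were called at d1, where 10.3% of all genes tested were, and 3 at d7 (11.7%). On the other days 4 were called: at d4 (14.7%), d10 (14.3%), d15 (20.3%) and d20 (12.2%). The median log2 change of the 9 members was 1.04 at d1 and 0.81 at d20, and that of all genes tested was 0.00089 and -0.00047.

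Persistence was described by the number of treated days on which a gene was called higher. SMAD7, SKI, SKIL, PMEPA1, SMURF1 and SMURF2 were higher on all 6 days, as were 14.3% of all genes tested. SMAD7, SKIL and PMEPA1 were at least 2-fold higher on all 6 days, as were 3.38% of all genes. For SMURF2 the d15 call was lost when every library was set to the same total (log2 change 0.12; limma, adjusted p = 0.12). The 5 others were called on all 6 days in each alternative run apart from the 2-fold minimum. The log2 change left at d20 was 93.5% of the peak for PMEPA1, 80.1% for SMURF2, 74.0% for SMAD7, 60.8% for SKIL, 54.7% for SKI and 51.7% for SMURF1. The peak was at d4 for PMEPA1, SMAD7, SKIL and SMURF1, at d15 for SKI and at d10 for SMURF2.

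**Figure D4:**
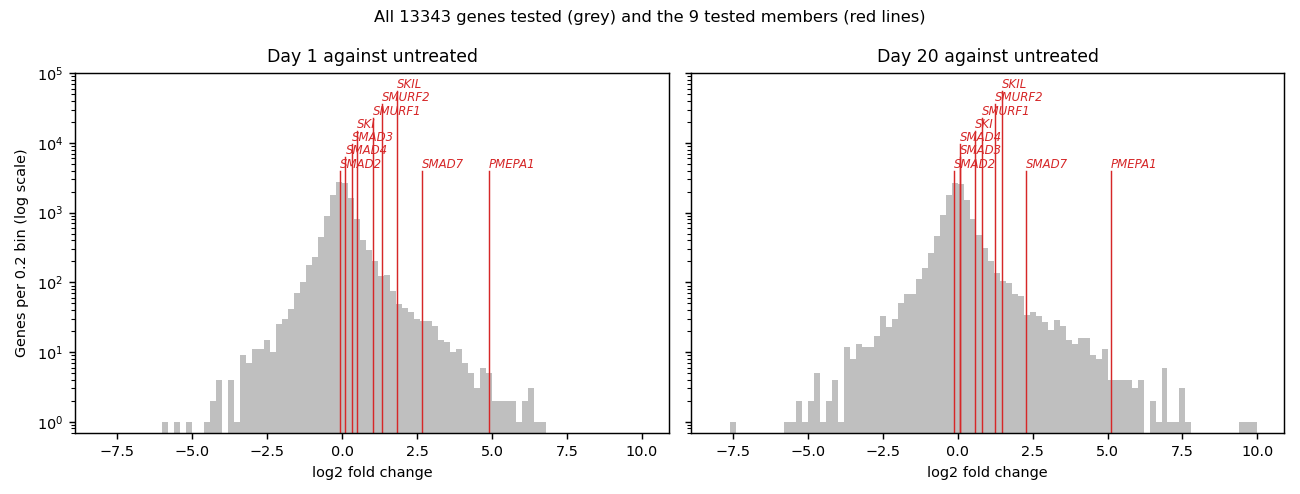
Number of genes per bin of 0.2 (y axis, log scale) by log2 fold change against untreated cells (x axis) at d1, left, and d20, right, over the 13343 genes tested, with the 9 members as red lines whose height has no meaning. PMEPA1 and SMAD7 stand in the right tail on both days (4.88 and 2.65 at d1, 5.10 and 2.29 at d20), while SMAD2, SMAD3 and SMAD4 lie within the central peak.

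The first and last treated days were then compared directly, by the contrast of d20 against d1 in the fit over all 7 timepoints. Of the 9 members 4 were called, where 42.1% of all genes tested were: 3 were lower (21.1%) and 1 was higher (21%), and none changed 2-fold (4.56%). SKIL was lower at d20 than at d1 by 0.34 ± 0.063 on the log2 scale, SMAD7 by 0.35 ± 0.067 and SMURF1 by 0.23 ± 0.046 (limma, adjusted p = 0.000161, 0.000245 and 0.000409). The d20 libraries of SKIL reached at most 762 and its d1 libraries began at 888, and those of SMAD7 reached 543 and began at 640, so neither overlapped. PMEPA1 was higher at d20 by 0.22 ± 0.076 (limma, adjusted p = 0.0226). That call was lost when any of 4 single libraries was left out (d1 library b or c, d20 library a or c; limma, adjusted p 0.0569 to 0.0735), although all 3 d20 libraries lay above all 3 d1 libraries. SKI and SMURF2 differed between d1 and d20 by 0.08 and -0.08, with 95% intervals of -0.00 to 0.17 and -0.22 to 0.06 (limma, adjusted p = 0.109 and 0.341). SMAD2, SMAD3 and SMAD4 differed by -0.04, -0.24 and -0.02 and were not called (limma, adjusted p = 0.419, 0.097 and 0.769). When only d1 and d20 were fitted, SMAD3 was called lower at d20, by the same 0.24 (limma, adjusted p = 1.25e-05). Its d20 libraries reached at most 1521 and its d1 libraries began at 1625.

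Between successive days the inhibitors did not move as one. From d1 to d4, 8 of 9 members were called, against 64.9% of all genes, and 7 of them rose (32.9% of all genes) while SMURF2 fell (32%). From d4 to d7, 8 of 9 were called, against 51.1%, and all 8 fell, where 25.5% of all genes fell and 25.5% rose. The call of SMAD3 in that step was lost when only d4 and d7 were fitted (limma, adjusted p = 0.0533), and without d7 library c all 9 members were called. From d7 to d10, 7 of 9 were called, against 71.4%: PMEPA1, SMURF1 and SMURF2 rose, as did 36.2% of all genes, and SMAD4, SMAD7, SKI and SKIL fell, as did 35.2%. In that step the calls of PMEPA1, SMURF1 and SMAD4 were lost when only d7 and d10 were fitted (limma, adjusted p = 0.052, 0.0696 and 0.0872), that of SMAD4 also without d7 library a, and that of SMURF1 under quantile normalization and without d7 library b or d10 library a. SMAD3 changed by 0.05 from d7 to d10 and was not called, but without d7 library c it rose by 0.29 (limma, adjusted p = 6.7e-07). From d10 to d15, 9 of 9 were called, against 79.8%, with SMAD2, SMAD4, SMAD7, SKI and SKIL higher (39.3% of all genes) and SMAD3, PMEPA1, SMURF1 and SMURF2 lower (40.5%). The call of SMAD3 in that step was lost under the same-total scaling and under quantile normalization (limma, adjusted p = 0.0582 and 0.088). From d15 to d20, 8 of 9 were called, against 74.1%: SMAD3, SMURF1 and SMURF2 rose (37.7% of all genes) and SMAD2, SMAD4, SMAD7, SKI and SKIL fell (36.3%). At least 2-fold changes were few among the members in these steps: 0 of 9 from d1 to d4 (6.17% of all genes), 0 from d4 to d7 (3.78%), 1 from d7 to d10 (12.7%), 1 from d10 to d15 (22.2%) and 0 from d15 to d20 (15%), with SMURF2 the member called in both. The counts of 0 were also 0 by edgeR, by DESeq2 and without adjustment of p. SMURF1 in that step rose by only 0.11 (limma, adjusted p = 0.041), and the call was lost under both other scalings, without the filter, by DESeq2, and without any of 4 single libraries (d15 library b or c, d20 library a or c). PMEPA1 from d15 to d20 changed by 0.14 (limma, adjusted p = 0.1). That rise was called when only d15 and d20 were fitted (limma, adjusted p = 1.35e-05), and these libraries did not overlap. A fit of only d1 and d4 also called SMAD3 higher at d4 (0.09; limma, adjusted p = 0.0478). Quantile normalization called SMAD2 lower from d7 to d10 (-0.14; limma, adjusted p = 0.00613). SMAD7 and SKIL kept one direction with each other through all 5 steps, both rising to d4 and d15 and falling to d7, d10 and d20. SKI and SMAD4 were called in these same directions in all 5 steps. SMAD2 had the same signs, with its step from d7 to d10 not called.

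Levels of different genes were compared per kb of annotated exon, using the merged exons of all transcripts of a gene, which understates genes with long rare forms such as SMAD2 with 36.4 kb. On this scale PMEPA1 went from 62.0 ± 4.37 normalized counts per kb (SD, n = 3) in untreated cells to 2133 ± 38.7 at d20. SMAD7 went from 21.4 ± 1.83 to 105 ± 2.35, and SKIL from 33.2 ± 3.57 to 92.7 ± 4.53. In untreated cells these 3 were the lowest per kb of the members apart from SMAD6 and SMAD2 (0.39 and 49.7), with PMEPA1 just above SMAD2. SKI, at 197 per kb, and SMURF1, at 176, were the highest. At d20 PMEPA1 was the highest and SMURF1 and SKI followed at 308 and 291.

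Other genes of the pathway were taken from lists by role. Of all genes tested, 59.8% were called at d1 and 62.7% at d20, higher and lower together. Counts near these shares say little about a list. Of 17 TGFβ-SMAD3 targets, 15 were higher at d1 and 16 at d20 and the rest were not called, with a median log2 change of 2.38 and 2.53. Among them ADAM19, a membrane-bound metalloprotease, rose by 5.29 ± 0.139 at d1 and 5.31 at d20, and TAGLN, an actin-binding protein, by 2.38 and 4.02. Of 11 ligands and receptors tested, 6 were higher and 4 lower at d1, and 6 higher and 5 lower at d20. INHBA, the activin A subunit, rose by 3.15 and 3.30, and the ligand TGFB2 by 1.1 and 2.63, while the co-receptor TGFBR3 fell by 1.69 at d1 and 1.66 at d20. Of the 3 SMADs of the BMP branch, SMAD1 fell by 0.17 at d1 and SMAD9 by 1.17 at d20, while SMAD5 changed by -0.02 at d1 and -0.0020 at d20, which did not pass the threshold. Of 6 BMP-SMAD targets tested, 5 were higher on each of these days. ID1 was up by 1.05 and 1.63, ID2 by 1.07 and 1.29, and GATA2 by 1.13 and 1.64. ID2 was near the floor, with means of 4.23 in untreated cells and 9.85 at d1. It reached the mean for testing only through treated days, so its place in that count carries little weight.

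Of 11 other negative regulators tested, 5 were higher, 1 was lower and 5 were not called at d1, and the counts were the same at d20. Of all genes tested, 59.8% and 62.7% were called on these days in either direction. LTBP1 was placed in this list, although it holds latent TGFβ in the matrix and does not act on receptors or SMADs. LTBP1 rose by 1.01 and 1.13, and FKBP1A, which binds the type I receptor, by 0.84 and 0.92. BAMBI, a decoy receptor, rose by 1.06 at d1, and its change of 0.34 at d20 was not past the threshold (limma, adjusted p = 0.228). Of 12 SMAD cofactors tested, 4 were higher and 7 lower at d1, and 4 higher and 4 lower at d20, beside the same shares of all genes. ZEB2, a repressor that binds SMADs, rose by 0.89 and 3.15, E2F4 rose by 0.48 and 0.32, and TGIF2 fell by 0.38 and 0.52. Of 6 ubiquitin enzymes that act against the inhibitors, none was called at d1 by limma, edgeR or DESeq2, with 1, 1 and 0 at an unadjusted p under 0.05, and 3 were higher and 1 lower at d20. USP11, a deubiquitinase, rose by 0.41 at d20, RNF111, which marks SMAD7, SKI and SKIL for degradation, rose by 0.26, and UCHL5 fell by 0.21.

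**Figure D5:**
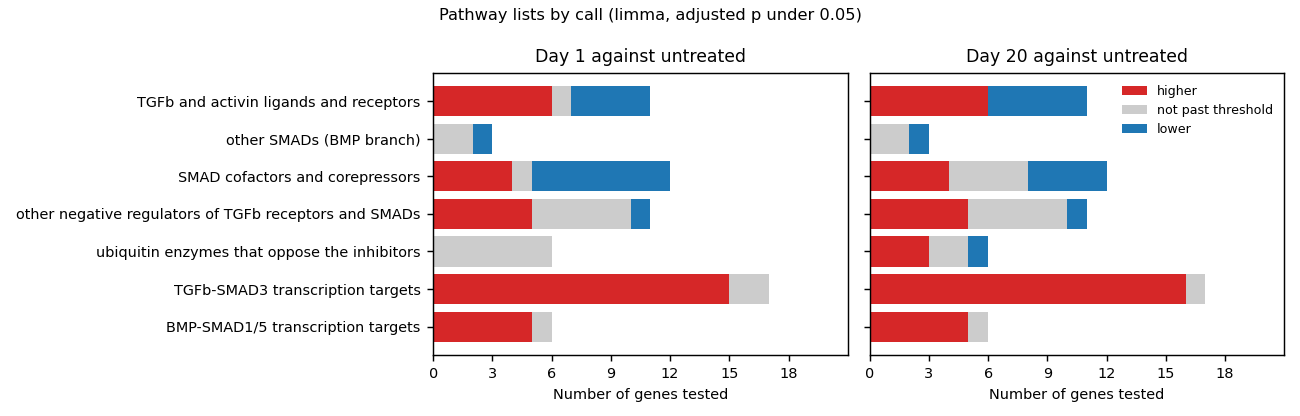
Number of genes tested (x axis) in each of 7 lists by role (y axis), higher, lower or not past the limma threshold against untreated cells, at d1 and at d20. The TGFβ-SMAD3 targets are higher in 15 and 16 of 17 genes, whereas the cofactors and the ligands and receptors hold genes of both directions. Of all genes tested, 59.8% were called at d1 and 62.7% at d20, in either direction.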

How the data were processed

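RNA-seq of HMLE cells covered 21 libraries, 3 at each of 7 timepoints. The authors deposited a table of normalized signal, in which each library's reads are scaled by a single size factor and rounded to 2 decimals. The labels' processing notes name STAR 2.7, Salmon 1.4 and hg19, with no role for each. Dividing by the value of 1 read gave whole reads for 100% of values (tolerance 0.02). The study describes the libraries as biological triplicates.

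Genes with a mean of at least 10 (13343, with 9 of the 10 members) entered limma 3.58.1 (R 4.3.3) as log2(value + 1), in one fit over 7 timepoints for 12 contrasts, with Benjamini-Hochberg adjustment within each contrast. The fit was checked on simulated data. edgeR 4.0.16 and DESeq2 1.42.0 were run on the recovered reads, and the other alternatives were a pseudocount of 10, no filter, quantile normalization, libraries rescaled to a same total, a fit of only the groups compared, a 2-fold minimum and each library left out. Fold changes on this scale understate low genes. Columns are not numbered by replicate, and libraries are lettered by column. Of each list, the 3 tested genes with the largest called change at d1 or d20 were named. A gene that this rule names is not reported here. The members and lists were chosen with earlier results of these data known. Of the 14 other negative regulators, 13 were found by symbol.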

Additional observations from a re-analysis of the deposited data

Results flagged for a closer look

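For 4 of the 9 members tested the change against untreated cells differed between d20 and d1, by the contrast of these days in limma with Benjamini-Hochberg adjustment. That contrast called 42.1% of all genes tested, so the count is near the share of all genes. The difference was 0.2226 on the log2 scale for PMEPA1 (limma, adjusted p = 0.0226), with all 3 d20 libraries above all 3 d1 libraries, but this call was lost when any of 4 single libraries was left out (limma, largest adjusted p = 0.0735). It was -0.3441 for SKIL (limma, adjusted p = 0.000161), -0.3536 for SMAD7 (limma, adjusted p = 0.000245) and -0.2306 for SMURF1 (limma, adjusted p = 0.000409), each with all 3 d20 libraries below all 3 d1 libraries.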

How the results depend on the processing

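Of 1404 values of the 9 members under the alternatives, 1341 kept their side of the threshold, 41 lost the call and 14 gained one. The other 8 reversed direction, with a call in the main run, the alternative or both. The 1341 include values that changed sign with neither run called. SMAD3 at d20 against untreated, 0.08 in the main run and -0.12 under the same total, is an example. With every library set to the same total, SMAD4 reversed at d1 (-0.0865), d7 (-0.0452), d10 (-0.1832) and d20 (-0.1083), and SMAD2 at d7 (-0.1734) and d15 (-0.0430); under quantile normalization SMAD4 reversed at d10 (-0.0979) and d20 (-0.0074). The same-total scaling lowers the median of all genes on every treated day; the cause under quantile normalization was not tested. A minimum of 2-fold left 5, 4, 3, 4 and 4 members called against untreated at d1, d4, d7, d15 and d20, none of the members at d4 against d1, d7 against d4, d20 against d15 and d20 against d1 (0 each), and 1 at d10 against d7 and at d15 against d10. A fit of only the groups compared called 4 members at d10 against d7 in place of 7; the cause was not tested. Leaving out 1 library gave 7 to 8 members at d1, 9 to 9 at d4, 7 to 8 at d7, 6 to 6 at d10, 8 to 9 at d15 and 6 to 8 at d20 against untreated. It gave 3 to 4 at d20 against d1 and 6 to 9 in the 5 successive steps. Over all genes tested, the main run called 59.8% to 76.5% against untreated, 42.1% at d20 against d1 and 51.1% to 79.8% in the steps. With the 2-fold minimum it called 10.3% to 20.3% against untreated and 3.78% to 22.2% in the other contrasts. No paired analysis was possible because no column of the table has a replicate number. SMAD6 is limited by depth, with at most 20 reads in a library.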

Other observations

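Among 8564 genes with a mean of at least 50 and a range of at least 0.5 between timepoint means of log2(value + 1), the genes whose timepoint means most resembled a member's were ranked by Pearson's r over 7 timepoint means, which share the untreated libraries and the size factors. They were DGKA (0.998), ST5 (0.994) and KIF26B (0.990) for SMAD7, and NPC2 (0.996), KIAA1539 (0.994) and TSC22D1 (0.993) for SKIL. For PMEPA1 they were COL22A1 (0.998), WNT5B (0.997) and FBLIM1 (0.997), and for SMAD3 they were DNAH2 (0.979), RAET1E (0.962) and PAG1 (0.938). Among the members, SMAD7 and SKIL had r = 0.99 over the 7 timepoint means and 0.99 over the 6 treated ones, and SMAD7 and PMEPA1 had 0.97 over 7 and 0.29 over the 6 treated ones. SKI and SMURF2 had -0.02 over 7 and -0.92 over 6. These values describe few points, and no p is given.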
